A study of Saccharomyces cerevisiae with 7 samples.

Results

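TRX1, HYR1 and AHP1, 3 genes of thiol redox control, were followed among the 337 budding yeast genes for which the authors deposited a readthrough index (RTI) from GRO-seq. They were taken by name from the main part of the deposited table, where each has 1 row. They were chosen by their RTI in sua7-1 against WT libraries as well as by their function, so the comparison of the strains is given for them as a description, with no test.

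The study compared cells carrying sua7-1, an allele of the TFIIB gene SUA7 that replaces a glutamic acid with a lysine, with the parental wild type (WT) strain BY4733. Both strains share the BY4733 background, a haploid of mating type alpha with deletions in URA3, MET15, LEU2, TRP1 and HIS3. Cells of both strains were grown in YPD at 30 °C to an A600 of 0.8, and permeabilized. Engaged polymerases then took up BrUTP for 5 min at 30 °C, so that the RNA they made could be pulled down and sequenced. There are 3 sua7-1 libraries, with the replicate numbers 2, 3 and 4, and 4 WT libraries, with the numbers 1 to 4.

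The RTI of a gene divides the reads that fall 50 to 500 nt past the mRNA 3' end by those in the mirror window before it. A higher value means more polymerase signal past the poly(A) site relative to the end of the gene. An RTI is listed for 314 to 337 genes in each of the other libraries but for only 38 in WT replicate 4, of which 37 lie on the Watson strand and 1, TRX1, on the Crick strand. Only ratios were analysed, so depth and counting error are unknown. The methods give 3 biological replicates per strain and do not say which of the 4 WT libraries these are, so part of the WT spread may be technical. The median RTI of a library was 0.0414 to 0.0850 in sua7-1 and 0.00349 to 0.0150 in WT.

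Thioredoxins are small proteins that reduce disulfide bonds in other proteins through a pair of cysteines, and are themselves reduced by thioredoxin reductase with electrons from NADPH. Peroxiredoxins and thiol peroxidases destroy peroxides with a reactive cysteine and hand the resulting disulfide on to thioredoxin. In budding yeast, TRX1 encodes a cytosolic thioredoxin, AHP1 a peroxiredoxin with a preference for alkyl hydroperoxides, and HYR1 a thiol peroxidase that also passes the peroxide signal to the transcription factor Yap1.

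TRX1 (YLR043C) lies on chromosome XII of R64 from 231702 to 232013 on the minus strand, HYR1 (YIR037W) on chromosome IX from 423128 to 423619 on the plus strand, and AHP1 (YLR109W) on chromosome XII from 368781 to 369311 on the plus strand. These are the coding spans from start to stop codon, of 312, 492 and 531 nt, and none has an intron. The mRNA 3' ends that anchor the RTI were not used here, so distances are given from the stop codon.

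What follows the stop codon differed between the 3 genes. After TRX1 the next protein-coding gene is NFG1, on the same strand, 1250 nt away, and the replication origin ARS1211 is annotated from 281 to 523 nt after the stop codon. HYR1 faces GTT1, a glutathione transferase gene on the opposite strand that ends 189 nt away, and AHP1 faces CCW12, a cell wall protein gene on the opposite strand that ends 385 nt away. The next protein-coding gene was on the opposite strand for 254 of the 331 genes of the table that were found in the annotation. On the other side of TRX1, the coding region of PDC1 (pyruvate decarboxylase) ends 376 nt before the start codon on the same strand. Whether its reads enter the upstream window of TRX1 was not tested.

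**Figure D1:**
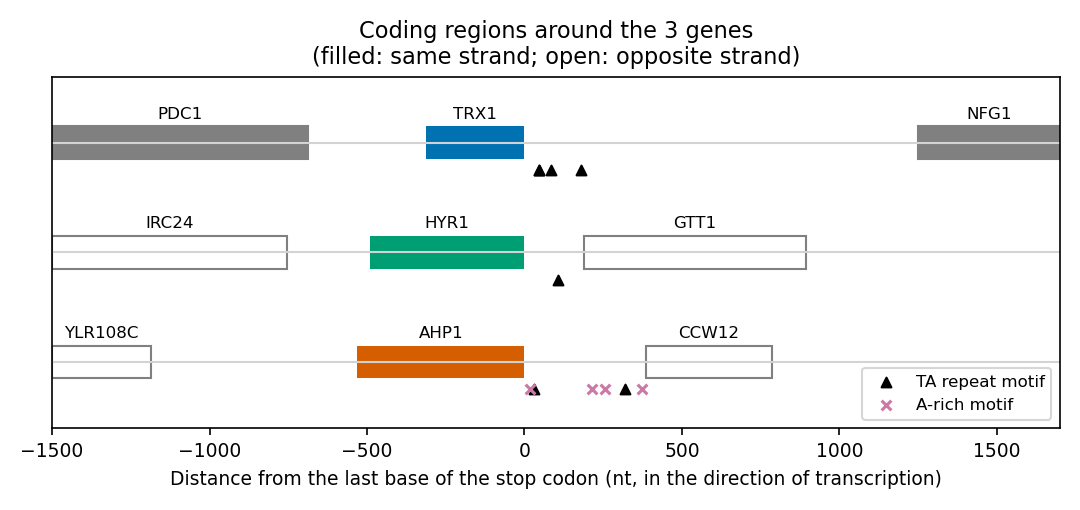
Coding regions around TRX1, HYR1 and AHP1, with the last base of the stop codon at 0 and distances in nt in the direction of transcription. Filled boxes lie on the same strand and open boxes on the opposite strand, triangles mark TATATA and crosses AATAAA within 500 nt after the stop codon. The opposite-strand genes GTT1 and CCW12 end 189 and 385 nt after HYR1 and AHP1, while NFG1 begins 1250 nt after TRX1 on the same strand.

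The short motifs known from yeast poly(A) signals, TATATA of the efficiency element and AATAAA of the positioning element, were searched in the 300 nt after each stop codon. The site of each kind nearest to the stop codon is shown, since it is past these signals that the RTI is measured. Sequences run 5' to 3' on the transcribed gene's strand of R64, with the motif in capitals.
TRX1, chrXII:231643-231666, minus strand: tgtgtttgtTATATAtagtttacc
HYR1, chrIX:423718-423741, plus strand: gcaacagacTATATAcgtatacat
AHP1, chrXII:369333-369356, plus strand: aaccatgttTATATAaaaaaaatt
AHP1, chrXII:369319-369342, plus strand: gtaatagacAATAAAaccatgttt

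TRX1 held TATATA at 4 positions within 300 nt, the first at nt 45 after the stop codon, of which the first 2 overlap each other. HYR1 held it at 1 position, at nt 108, and AHP1 at 1 position, at nt 31. AATAAA was found only after AHP1 among the 3 genes, at 3 positions, the first at nt 17, and its reverse complement TTTATT after none of them. TATATA is its own reverse complement. In the table, 64.7% of 331 genes held TATATA and 46.2% held AATAAA in this window, and of all 6021 protein-coding genes 55.4% and 39.3% did. The 300 nt after the stop codon of HYR1 were low in A and T, with 59.3% against a median of 70.0% over the genes of the table, and 2.12% of the other genes had less. TRX1 had 68.7% and AHP1 72.7%.

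No copy with a long shared stretch was found for the 3 genes. In coding sequence TRX1 was 73.5% identical to TRX2, the other cytosolic thioredoxin gene, with a longest shared run of 17 nt. HYR1 was 69.9% identical to GPX2, with a longest shared run of 23 nt, and 59.6% identical to GPX1. AHP1 was 49.3% identical to TSA1, the major cytosolic peroxiredoxin gene. No stretch of 30 nt within 500 nt on either side of the 3 stop codons occurred elsewhere in the genome.

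TRX1 had little signal past its 3' end in WT cells and more in the mutant. Its RTI was 0.130, 0.198 and 0.156 in sua7-1 replicates 2, 3 and 4, against 0.0158, 0.00908, 0.00889 and 0.0185 in WT replicates 1, 2, 3 and 4. All mutant values lay above all WT values, and TRX1 has a value in each of the 7 libraries. The mean was 0.161 ± 0.0340 (SD, n = 3) in sua7-1 and 0.0131 ± 0.00485 (SD, n = 4) in WT. The ratio of the means was 12.3. On the log2(RTI + 0.002) scale the difference was 3.47 with a standard error of 0.46, the 65th of 337 genes from the highest.

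HYR1 showed a wider gap, which rests on 2 mutant libraries, since no RTI is listed for it in sua7-1 replicate 2. Its RTI was 0.206 and 0.218 in sua7-1 replicates 3 and 4, against 0.0231, 0.00221, 0.00274 and 0.00760 in WT replicates 1, 2, 3 and 4. The mutant values were close to each other, while the WT values spread widely, with replicate 1 the highest, and the strains did not overlap. The mean was 0.212 ± 0.00809 (SD, n = 2) in sua7-1 and 0.00892 ± 0.00978 (SD, n = 4) in WT. The ratio of the means was 23.8. The log2 difference was 4.68 with a standard error of 0.72, the 7th of 337 genes from the highest. HYR1 has a second row in a further part of the table, with the same values.

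AHP1 went the other way. Its RTI was 0.123, 0.0977 and 0.145 in sua7-1 replicates 2, 3 and 4, against 0.15, 1 and 0.286 in WT replicates 1, 2 and 3. WT replicate 4 lists none. All mutant values lay below all WT values, though the highest mutant value, 0.145, was close to the lowest WT value, 0.15. The mean was 0.122 ± 0.0237 (SD, n = 3) in sua7-1 and 0.479 ± 0.457 (SD, n = 3) in WT, so that the mutant mean was 0.255 of the WT mean. The WT mean rests largely on replicate 2, where an RTI of 1 stands for equal reads in both windows. The 3 WT values, 0.15, 1 and 0.286, all equal ratios of small whole numbers. Such ratios can come from a few reads as well as from many. The number of reads behind each of them is not known, so this limit holds for all WT values of AHP1. The log2 difference was -1.53 with a standard error of 0.67, the 4th of 337 genes from the lowest, and 16 genes in all had a negative difference. Without WT replicate 2 it was -0.77, and without WT replicate 1 it was -2.13.

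**Figure D2:**
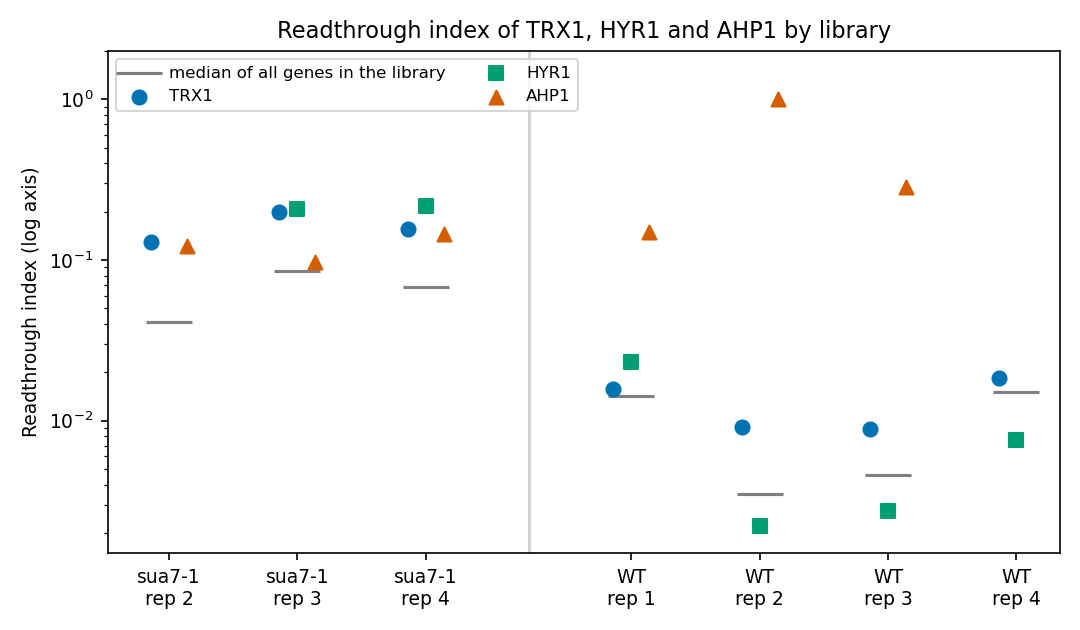
RTI of TRX1 (circles), HYR1 (squares) and AHP1 (triangles) in each library on a log axis, with the sua7-1 libraries at left and the WT libraries at right. Grey bars mark the median of all genes with a value in that library. TRX1 and HYR1 lie at 0.130 to 0.218 in sua7-1 and at 0.00221 to 0.0231 in WT, while AHP1 lies at 0.0977 to 0.145 in sua7-1 and at 0.15 to 1 in WT.

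The mutant libraries brought the 3 genes close together and the WT libraries set AHP1 apart. Over the mutant libraries the RTI of all 3 genes lay between 0.0977 and 0.218. The order of the means was HYR1, TRX1 and AHP1 from the highest, and the ranges of TRX1 and AHP1 overlapped while HYR1 lay above both in its 2 libraries. In WT the order of the means was AHP1, TRX1 and HYR1, with all AHP1 values above all values of the other genes. TRX1 was above HYR1 in WT replicates 2, 3 and 4 and below it in replicate 1, so that the ranges of TRX1 and HYR1 overlapped in WT.

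Across the whole table, 253 of 337 genes (75.1%) were called higher in sua7-1 and 3 (0.890%) lower, by limma on log2(RTI + 0.002) at an adjusted p under 0.05 (Benjamini-Hochberg) and a log2 difference beyond 1. The mutant values lay wholly above the WT values for 264 genes (78.3%), TRX1 and HYR1 among them, and wholly below for 9 genes (2.67%), AHP1 among them. Since the choice of the 3 genes used this contrast, these counts are given for reference only.

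**Figure D3:**
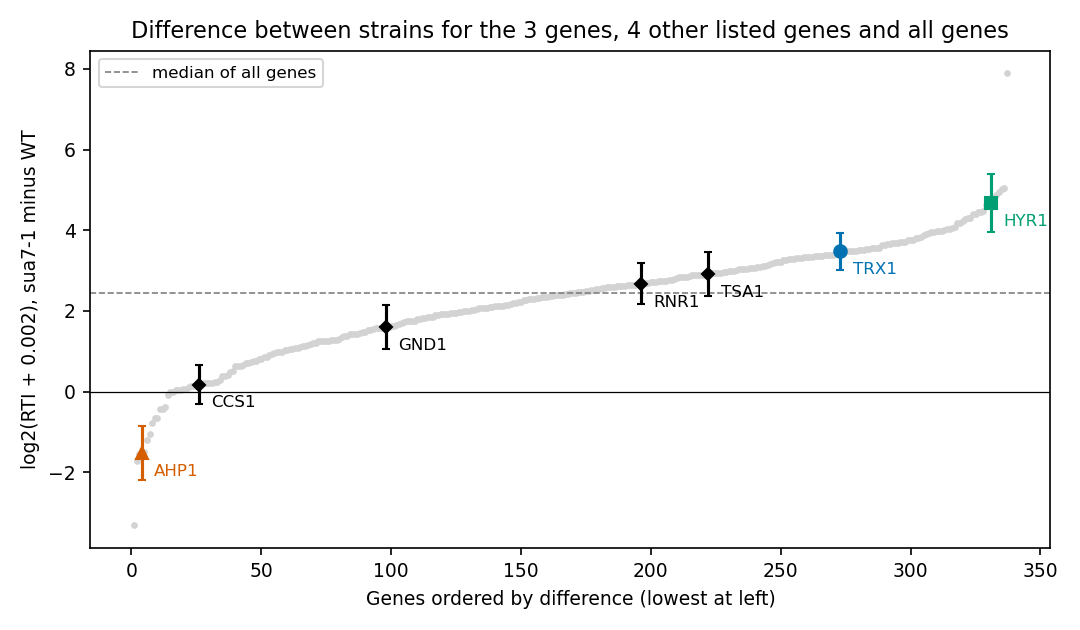
Difference in log2(RTI + 0.002), sua7-1 minus WT, of all 337 genes ordered from the lowest (grey points), with TRX1, HYR1, AHP1 and the 4 other listed genes marked with their standard errors. The dashed line is the median of all genes at 2.44. HYR1 is the 7th from the right, TRX1 lies above the median at 3.47, and AHP1 is the 4th from the left at -1.53.

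Most genes had a higher RTI in the mutant, with a median log2 difference of 2.44. Relative to that median, TRX1 was higher by 1.03, HYR1 by 2.24, and AHP1 stood at -3.97. When each library was divided by its median RTI, the median difference of all genes was -0.19, and the differences were 0.72 for TRX1, 1.93 for HYR1 and -4.84 for AHP1. With WT replicate 4 left out as well they were 0.51, 1.68 and -4.84. Since these values chose the genes, they are given with no test.

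The place of each gene within its own library is not moved by a shift common to the library. In sua7-1, 73.1% to 81.8% of the other genes had a lower RTI than TRX1, against 53.7% to 66.7% in WT. HYR1 stood above 75.3% and 85.7% of the other genes in sua7-1 replicates 3 and 4, and above 35.1% to 63.3% in WT. The 35.1% is from WT replicate 4, where TRX1 and HYR1 are placed among only 38 genes. AHP1 stood above 54.6% to 79.2% of the other genes in sua7-1 and above 91.7%, 99.1% and 97.6% in WT replicates 1, 2 and 3. In WT replicate 2 only 3 genes had a higher RTI than AHP1. TRX1 and HYR1 were placed higher in the mutant than in WT, and AHP1 lower. The WT places of AHP1 rest on values whose read numbers are not known. The choice of the 3 genes used this contrast, so their places are a description only. How many of all genes moved as far in place was not counted.

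**Figure D4:**
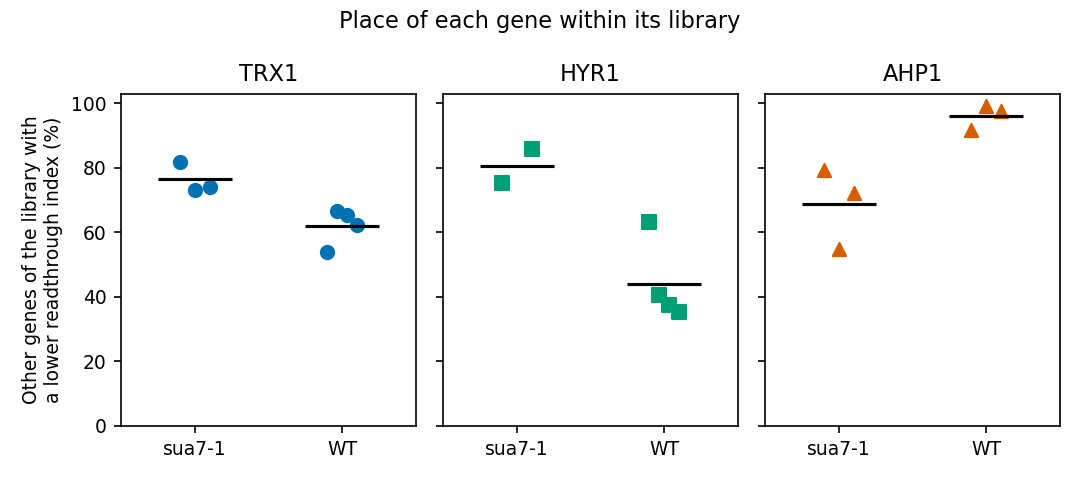
Percent of the other genes of a library with a lower RTI than TRX1, HYR1 and AHP1, with sua7-1 left of WT. Each point is a library and each bar the mean. The means were 76.3 in sua7-1 and 62.0 in WT for TRX1, 80.5 and 44.1 for HYR1, and 68.6 and 96.1 for AHP1. The WT means of TRX1 and HYR1 include WT replicate 4, where the place is among only 38 genes.

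Of 57 genes listed for thiol redox control, its clients, its NADPH supply and related peroxide and superoxide enzymes, 7 were among the 337 genes analysed. Beside the 3 genes these are TSA1, RNR1, CCS1 and GND1. No gene of the glutathione and glutaredoxin group (16 listed), the regulators such as YAP1 (3 listed) or disulfide formation in the endoplasmic reticulum (6 listed) was among them, and of the thioredoxin system itself (5 listed) TRX1 is the only one. Of the 4 other genes, 3 rose and none fell by the rule that called 75.1% of all genes higher, with a median log2 difference of 2.13 against 2.44 over all genes. After division by the library median only TSA1 was still called higher (1.40), RNR1 (-0.58) and GND1 (0.60) passed in neither direction, and CCS1 was called lower (-3.15).

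TSA1, a peroxiredoxin like AHP1, rose. Its RTI was 0.00802, 0.0301 and 0.0184 in sua7-1 replicates 2, 3 and 4, against 0.00104, 0.000222 and 0.000260 in WT replicates 1, 2 and 3. The log2 difference was 2.91 (standard error 0.55, adjusted p = 0.00082 from limma), which understates a ratio of means of 37.0 because the WT values lie under the pseudocount. TSA1 had a far lower RTI than AHP1 in every library in which both have a value.

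RNR1, the large subunit of ribonucleotide reductase, a client of thioredoxin, rose too. Its RTI was 0.135, 0.269 and 0.187 in sua7-1, against 0.0362, 0.0195 and 0.0311 in WT replicates 1, 2 and 3, with no overlap and a log2 difference of 2.67 (standard error 0.51, adjusted p = 0.00089 from limma). GND1, a 6-phosphogluconate dehydrogenase that makes NADPH, stayed low in both strains, with 0.00384, 0.0130 and 0.00766 in sua7-1 and 0.00323, 0, 0 and 0.00259 in WT replicates 1, 2, 3 and 4. Its log2 difference of 1.60 (standard error 0.54, adjusted p = 0.017 from limma) no longer met the rule without sua7-1 replicate 3 (1.26), sua7-1 replicate 4 (1.58) or WT replicate 3 (1.38), nor with a pseudocount of 0.01 (0.65) or with zeros taken as missing (0.95).

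CCS1, the copper chaperone of superoxide dismutase, did not pass the test. It had an RTI of 0.240, 0.293 and 0.218 in sua7-1 and of 0.282, 0.190 and 0.198 in WT replicates 1, 2 and 3, so the strains overlapped, and the log2 difference was 0.17 (standard error 0.48, adjusted p = 0.75 from limma). Like AHP1 it had signal past its 3' end in WT cells.

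CCW12, the cell wall gene that faces AHP1, is the only nearest neighbour of the 3 genes that was analysed. Its RTI was 0.25, 0.0714 and 0.889 in sua7-1 and 0, 0.118 and 0 in WT replicates 1, 2 and 3. The strains overlapped and both varied widely, yet CCW12 was called higher, with a log2 difference of 5.02 (standard error 1.39, adjusted p = 0.0065 from limma). The call was lost with zeros taken as missing (1.09), after division by the library median (3.06) and with limma's trend and robust options. NFG1, PDC1, GTT1, IRC24 and YLR108C, the other nearest neighbours, were not analysed here.

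The genes most like each of the 3 were taken by the smallest root mean square difference of log2(RTI + 0.002) over the libraries in which it has a value, as a description of these libraries. Among 32 genes with a value in all 7 libraries, RPL43B was nearest to TRX1 with 0.49, then STE24 with 0.55 and RPL17A with 0.63. RPL43B and RPL17A encode ribosomal proteins and have near-identical copies with which reads may be shared, and STE24 encodes a membrane protease. For HYR1, over 6 libraries and 35 genes, UTH1 was nearest with 0.66, then RPL17A with 0.76 and RPL43B with 0.78. AHP1 had no close match. Over 6 libraries and 285 genes, the smallest differences were 0.97 for PDX1, a pyruvate dehydrogenase subunit gene, 0.97 for YLR342W-A and 1.13 for SND3. All 3 had a high RTI in both strains, with means of 0.199, 0.180 and 0.248 in sua7-1 and 0.270, 0.191 and 0.214 in WT.

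**Figure D5:**
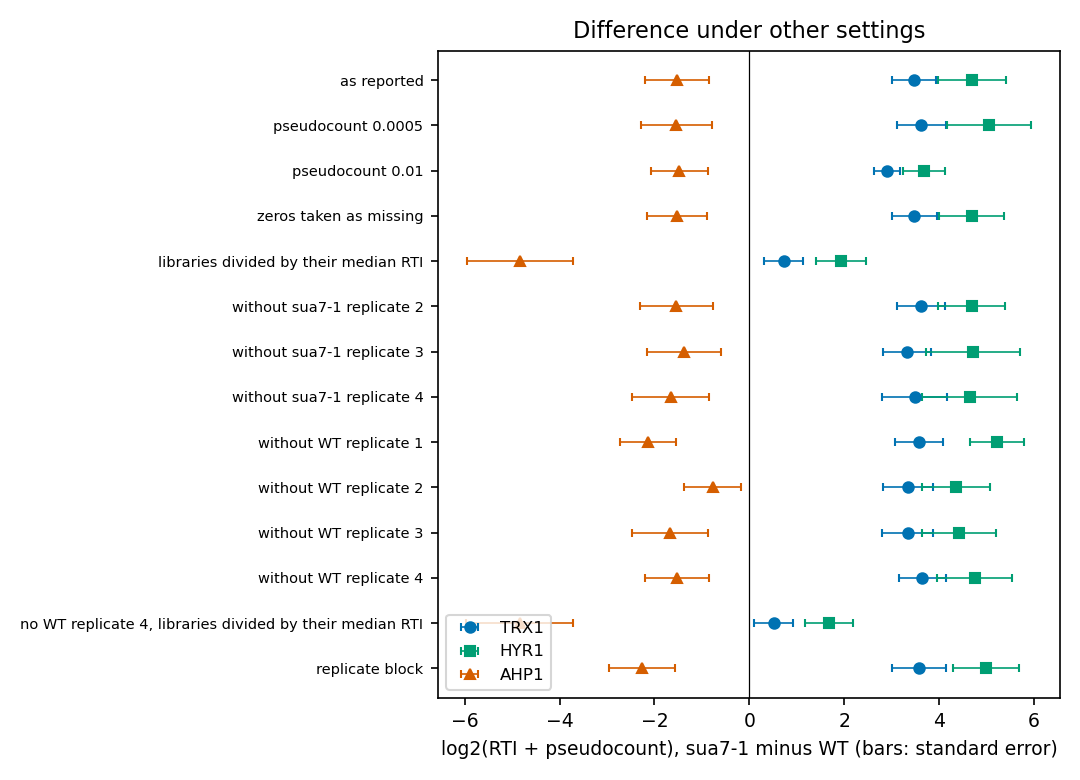
Difference in log2(RTI + pseudocount), sua7-1 minus WT, of TRX1 (circles), HYR1 (squares) and AHP1 (triangles) as reported and under each other setting, with bars for the standard error. The pseudocount is 0.002 where the label gives no other. TRX1 lies between 0.51 and 3.64 and HYR1 between 1.68 and 5.21, all above 0, and AHP1 lies between -4.84 and -0.77.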

How the data were processed

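The data are RTI values of 3 sua7-1 and 4 WT GRO-seq libraries. The authors trimmed adapters with cutadapt, aligned reads to S288C (R64), and counted reads in windows 50 to 500 nt past and ahead of the mRNA 3' end. For the aligner, no name is given in the sources used. The deposited value is the ratio of both counts per gene and library, in which library size cancels. The deposited table also lists, per gene, the count of libraries with a value, the authors' mean ratio per strain, and a log2 ratio and p-value of the authors' own comparison, which were not used. All 337 genes of the main part of the table entered the fit and no value was imputed. A further part repeats 166 of them with equal values.

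Genes were fitted with limma 3.58.1 (R 4.3.3) to log2(RTI + 0.002) of all 7 libraries by strain, with no covariate, in place of the one-sided test per gene used in the study. The fit was tested on simulated data. Positions and sequences came from the RefSeq copy of R64, in which 331 genes matched. Python 3.11.15, pandas 2.3.3 and biopython 1.88 were used.

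The 3 genes and the thiol redox list were chosen with earlier results of these data known. Named are the 3 genes, every listed gene in the table, the 3 genes nearest to each by root mean square difference, and the nearest neighbours. Alternatives were pseudocounts of 0.0005 and 0.01, zeros as missing, a mean RTI of at least 0.01, division by the library median, limma's trend and robust options, leaving out each library in turn, and a replicate block. The division without WT replicate 4 was chosen after the data were seen.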

Additional observations from a re-analysis of the deposited data

Results flagged for a closer look

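The number of genes with a value stood apart in WT replicate 4, with 38 genes against 325, 334 and 336 in WT replicates 1, 2 and 3. It was the only one of 6 sets of 4 WT values looked at in which a library passed Dixon's limit, as about 5% of such sets do by chance. TRX1 and HYR1 have a value in this library and AHP1 has none. Without it, the log2 difference was 3.64 for TRX1 and 4.75 for HYR1.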

How the results depend on the processing

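The difference of TRX1 and HYR1 was above 0 and that of AHP1 below 0 in every setting run. The settings share their libraries, and the choice of the 3 genes used this contrast. With each library left out in turn, the log2 difference ranged from 3.32 to 3.64 for TRX1, from 4.36 to 5.21 for HYR1 and from -2.13 to -0.77 for AHP1, and 213 to 277 genes of the table were called higher and 2 to 4 lower. With a pseudocount of 0.01 the difference of TRX1 was 2.90 and 5 genes were called lower, as with zeros taken as missing (5). After division by the library median the differences were 0.72 for TRX1, 1.93 for HYR1 and -4.84 for AHP1. Their standard errors were 0.41, 0.53 and 1.12, and 23 genes were called higher and 51 lower. With WT replicate 4 left out as well the differences were 0.51, 1.68 and -4.84, with 21 genes higher and 54 lower. Their standard errors were then 0.41, 0.51 and 1.12. Of the 4 other listed genes, 1 was called higher and 1 lower after either division, and 1 of 2 left was called higher at a mean RTI of at least 0.01, which removes TSA1 and GND1.

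Libraries of the same number did not deviate together, with r of 0.13, -0.02 and -0.03 across genes for numbers 2, 3 and 4. The last of these rests on 38 genes. Between libraries of unlike number r ran from -0.20 to 0.22, so the number was not taken as a pairing. With a replicate block over the libraries numbered 2 to 4 the differences were 3.57 for TRX1, 4.99 for HYR1 and -2.27 for AHP1. Of 302 genes tested in this fit 240 were called higher and 3 lower. The fit leaves out WT replicate 1, without which the differences were 3.57, 5.21 and -2.13 with no block. HYR1 has no value in sua7-1 replicate 2 and AHP1 none in WT replicate 4, so fewer pairs stand behind their blocked differences. In a window of 500 nt after the stop codon 71.0% of genes held TATATA and 58.6% AATAAA. Depth is unknown, and HYR1 rests on 2 mutant libraries.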
